A study of Xenopus laevis with 10 samples.

Results

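The genes described here encode the gut hormones peptide YY (pyy), gastric inhibitory polypeptide (gip), glucagon (gcg), cholecystokinin (cck), somatostatin (sst), ghrelin (ghrl) and neurotensin (nts), together with chromogranin A (chga), a protein of the granules that store them. Rows of the count tables whose description names one of these, and no receptor, were taken, with both copies of a gene where Xenopus laevis, an allotetraploid frog, carries a long (L) and a short (S) chromosome copy. Left out were 4 genes whose descriptions hold such a name inside that of another peptide or enzyme: a pair described as gastrin/cholecystokinin-like peptide, a ghrelin O-acyltransferase-like gene and adcyap1.S, described as glucagon family neuropeptides-like. Of transcript variants, the row with the highest total count stood for the gene. This gave 17 genes of 34321 in all. gip.S entered as the copy of gip.L, since its row is described as glucose-dependent insulinotropic polypeptide, another name of the same hormone.

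RNA was measured by sequencing in intestinal tubes of tadpoles raised at 19 °C that were fed or left unfed. There are 5 fed and 5 unfed libraries. The 4 libraries of experiment 1 cover 10 and 13 days post fertilization (dpf), and the 6 of experiment 2 cover 10, 13 and 16 dpf, with a fed and an unfed library at each age. A library pools 20 to 26 tubes, and nothing in the labels says whether the libraries came from separate clutches, so p-values measure the spread between these libraries, which may be technical. In experiment 1 the title and the stage field give conflicting ages for 2 libraries: the fed one titled 13 dpf is listed as 10 dpf, and the unfed one titled 10 dpf as 13 dpf. Titles were used.

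Enteroendocrine cells are single hormone-secreting cells scattered through the gut epithelium. In mammals many of them sense the contents of the lumen and release peptides that act on appetite, gut movement, the gallbladder, the pancreas and the use of nutrients. The peptides are cut from larger precursors and packed with granins such as chromogranin A into dense granules. Some of these peptides are also made elsewhere: somatostatin in pancreatic islets and enteric neurons, glucagon in islets.

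Gene totals ran from 7008149 to 9947739 counts a library, and the 17 genes together held 0.0587% to 0.0821% of the counts of fed libraries and 0.0495% to 0.0607% of those of unfed libraries. Levels below are CPM (read counts scaled to the same total in each library) on library sizes adjusted for composition (TMM), given in the order 10 and 13 dpf of experiment 1, then 10, 13 and 16 dpf of experiment 2. Other enteroendocrine markers were present but low. The 17 that are outside the rule, all tested, summed to 71.4 to 101.2 CPM in fed libraries and 85.0 to 105.1 CPM in unfed libraries. The tubes also held stomach and pancreas RNA: 11 stomach genes, led by the acid pump subunits, summed to 2258 to 5326 CPM in fed libraries and 3321 to 4726 CPM in unfed libraries, and 24 acinar genes to 115.4 to 1860.5 CPM in fed libraries and 200.2 to 1915.3 CPM in unfed libraries. The highest sum of the marker lists was that of 15 genes listed as liver markers, with 23122 to 38141 CPM in fed libraries and 9113 to 26757 CPM in unfed libraries, higher in fed in 4 of 5 matched pairs. The 13 islet genes outside the rule summed to 45.9 to 70.4 CPM in fed libraries and 46.0 to 53.4 CPM in unfed libraries. Insulin RNA, which defines islet beta cells, was a small part of that sum: ins.S averaged 1.33 ± 0.97 CPM in fed libraries and 1.58 ± 0.74 CPM in unfed libraries, and ins.L 0.769 ± 0.134 CPM in fed libraries and 0.485 ± 0.275 CPM in unfed libraries (SD, n = 5 each).

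Most of the hormone genes were higher in fed than in unfed tadpoles over all ages. The pyy, gip, cck and nts genes rose in both copies, as did gcg.L and chga.L, while sst.1.L fell. Fed and unfed libraries were compared with edgeR's quasi-likelihood test with experiment and age in the model and a Benjamini-Hochberg adjusted p under 0.05 as threshold. Of the 17 genes, 15 had enough counts to be tested, 10 of these were higher in fed tadpoles and 1 was lower. Of 20 other fits, by setting or with a library left out, 11 lost the pyy.L call and 14 the sst.1.L call. Feeding moved a large part of the transcriptome: of 21719 genes tested, 25.4% were higher in fed tadpoles and 26.1% were lower, 51.5% in either direction. The median log2 fold change was 0.82 over the 15 hormone genes and -0.02 over all genes tested. When a trend of the counts on transcript length was removed from each library, 8 of the 15 were higher and 3 lower, because pyy.L and nts.L no longer passed and sst.1.S and ghrl passed as lower. Of the 21719 genes tested, 5329 were then higher and 5080 lower. The rows of 10 of the 15 are 494 to 925 bases long. In bulk RNA, fewer cells of a type and less RNA per cell cannot be told apart.

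**Figure D1:**
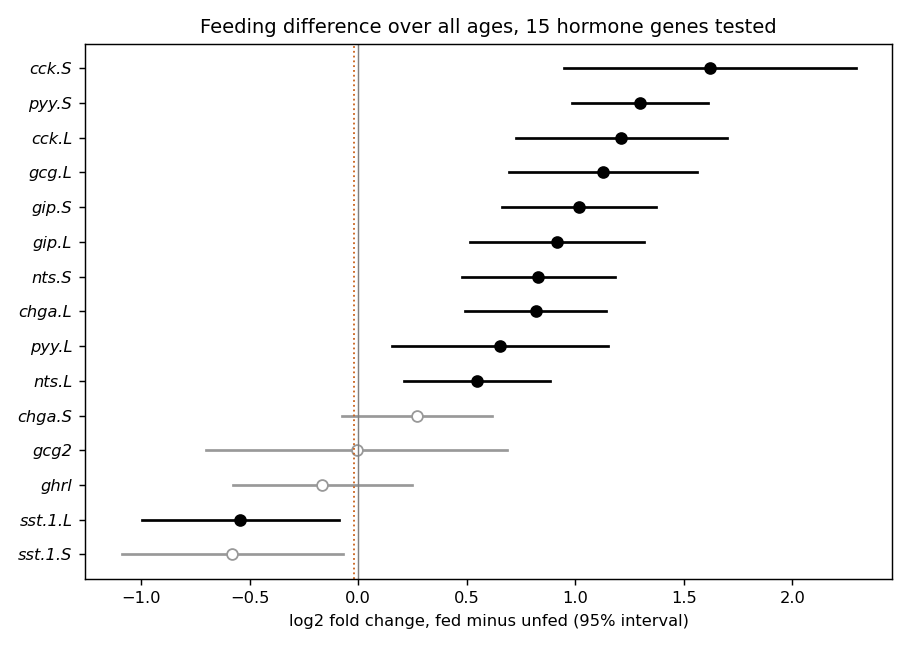
Log2 fold change of fed over unfed tadpoles over all ages (horizontal axis) for the 15 hormone genes tested, with the 95% interval of the edgeR estimate. Filled black points passed an adjusted p under 0.05 and open grey points did not; the dotted line is the median of all genes tested at -0.02. The 10 genes that were higher lie between 0.55 for nts.L and 1.62 for cck.S.

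Peptide YY is secreted by L cells of the lower gut, and in mammals it slows transit and lowers food intake after a meal. pyy.S stood at 42.2, 30.8, 28.9, 27.8 and 29.9 CPM in fed libraries, against 15.4, 17.2, 12.2, 11.9 and 8.94 CPM in unfed libraries. Every fed library was above every unfed one. The fold change was 2.46 (log2 1.30 ± 0.14 SE, edgeR adjusted p = 5.77e-05). With the ages of the titles, it held within each experiment taken alone. The rise was log2 1.14 in experiment 1 (edgeR adjusted p = 0.0127) and 1.42 in experiment 2 (edgeR adjusted p = 0.00144). With the length trend removed pyy.S rose by log2 0.96 (edgeR adjusted p = 0.000347). Of the 15 hormone genes tested, pyy.S and gcg.L passed in experiment 1 alone, which has 4 libraries and where 16.4% of all genes tested passed. In experiment 2 alone, which has 6 libraries, 11 passed, against 42.4% of all genes tested.

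pyy.L, the more abundant copy, had 68.7, 48.3, 46.0, 42.0 and 39.9 CPM in fed libraries, against 35.2, 60.6, 31.8, 17.9 and 18.8 CPM in unfed libraries. The groups overlapped, since the unfed 13 dpf library of experiment 1 exceeded 4 of the 5 fed libraries. Its rise was log2 0.65 ± 0.22 (SE, edgeR adjusted p = 0.0322), with 0.31 in experiment 1 and 0.97 in experiment 2. The call was lost with the length trend removed (log2 0.30, edgeR adjusted p = 0.27), without the experiment in the model (edgeR adjusted p = 0.113), with the ages of the stage field (edgeR adjusted p = 0.0562), and without any 1 of 7 libraries, where the highest edgeR adjusted p was 0.111. It was kept without either 13 dpf library of experiment 1 or the unfed 10 dpf library of experiment 2.

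**Figure D2:**
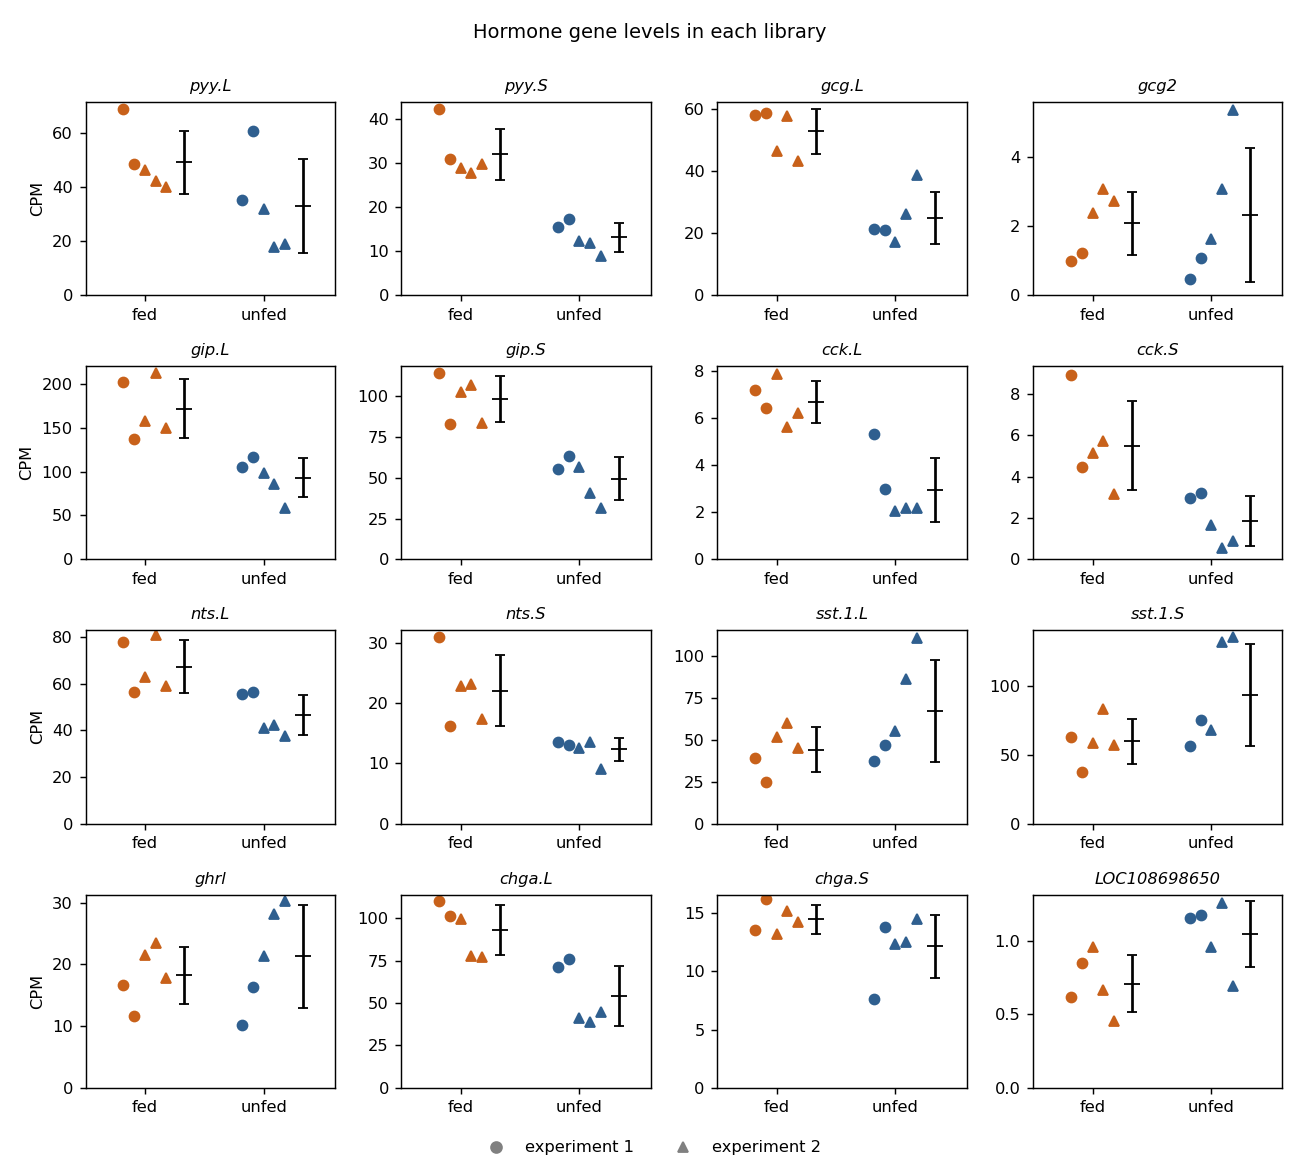
CPM (vertical axis, from 0) of 16 hormone genes in the 5 fed and 5 unfed libraries, with circles for experiment 1 and triangles for experiment 2; black bars give the mean ± SD. Fed and unfed points do not overlap for pyy.S, gcg.L, gip.L, gip.S, cck.L, nts.S and chga.L, and the unfed sst.1.L and sst.1.S points reach 111.0 and 136.0 CPM.

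Proglucagon is the precursor of glucagon and of the glucagon-like peptides, which in mammals raise insulin secretion and support growth of the mucosa. gcg.L had 58.0, 58.8, 46.6, 57.7 and 43.2 CPM in fed libraries, against 21.2, 21.2, 17.1, 26.2 and 38.7 CPM in unfed libraries. The groups did not overlap, and the nearest pair was that at 16 dpf. The rise was log2 1.13 ± 0.20 (SE, edgeR adjusted p = 0.000886), with 1.45 in experiment 1 (edgeR adjusted p = 0.00355) and 0.93 in experiment 2 (edgeR adjusted p = 0.0211). With the length trend removed gcg.L rose by log2 0.88 (edgeR adjusted p = 0.00428).

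The remaining proglucagon genes were scarce. gcg2, annotated as proglucagon II, averaged 2.08 ± 0.93 CPM in fed libraries and 2.33 ± 1.95 CPM in unfed libraries (SD, n = 5 each), a log2 difference of -0.01 with a 95% interval of -0.70 to 0.69 (edgeR adjusted p = 0.987). Its sign changed with the setting. The gcg2 level was higher in experiment 2 than in experiment 1 at every matched age and feeding state, which was not tested. gcg.2.L, described as glucagon-1-like, had 0 counts in all 10 libraries (a count of 0 allows up to 3 counts a library, for counting error only). adcyap1.S, left out of the rule, averaged 0.158 ± 0.146 CPM in fed libraries and 0.314 ± 0.303 CPM in unfed libraries (SD, n = 5 each) and had too few counts to be tested.

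Gastric inhibitory polypeptide comes from K cells of the upper intestine and in mammals raises insulin secretion after a meal. gip.L had the highest read count of the 17 genes, with 201.7, 136.5, 158.1, 212.4 and 149.6 CPM in fed libraries, against 105.5, 116.6, 98.4, 86.1 and 58.1 CPM in unfed libraries. gip.S had 114.4, 83.1, 102.8, 107.1 and 83.8 CPM in fed libraries, against 55.1, 63.1, 56.9, 40.9 and 31.3 CPM in unfed libraries. Neither copy overlapped between feeding states. The rise was log2 0.92 ± 0.18 for gip.L (SE, edgeR adjusted p = 0.00178) and 1.02 ± 0.16 for gip.S (SE, edgeR adjusted p = 0.000468). In experiment 1 alone the differences were log2 0.57 for gip.L and 0.71 for gip.S, which did not pass there (edgeR adjusted p = 0.259 and 0.114), and in experiment 2 they were 1.14 and 1.24. With the length trend removed, gip.S rose by log2 0.67 (edgeR adjusted p = 0.00377).

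Cholecystokinin is released by I cells and in mammals contracts the gallbladder and stimulates the exocrine pancreas. Its genes were scarce, with 15 to 66 counts a library for cck.L and 5 to 72 counts for cck.S. cck.L stood at 7.21, 6.44, 7.89, 5.62 and 6.22 CPM in fed libraries, against 5.30, 2.996, 2.05, 2.17 and 2.19 CPM in unfed libraries. cck.S stood at 8.94, 4.49, 5.14, 5.76 and 3.18 CPM in fed libraries, against 2.99, 3.21, 1.64, 0.572 and 0.894 CPM in unfed libraries. The cck.L groups did not overlap, and for cck.S the unfed 13 dpf library of experiment 1 lay just above the fed 16 dpf library.

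Over all ages cck.S had the largest fold change of the 15 genes tested, 3.07 (log2 1.62 ± 0.31 SE, edgeR adjusted p = 0.0013), and cck.L had 2.32 (log2 1.21 ± 0.22 SE, edgeR adjusted p = 0.00107). With the length trend removed the rises were smaller, log2 1.30 for cck.S (edgeR adjusted p = 0.00329) and 0.89 for cck.L (edgeR adjusted p = 0.00714). In experiment 1 alone the differences were log2 0.74 for cck.L and 1.05 for cck.S, and neither passed (edgeR adjusted p = 0.156 and 0.0775); in experiment 2 they were 1.62 and 2.20. The difference of the feeding effect between experiments was log2 0.85 for cck.L (edgeR adjusted p = 0.738). A pair of genes described as gastrin/cholecystokinin-like peptide was left out of the rule. Of these, gast.L, a gastrin gene, averaged 3.43 ± 0.91 CPM in fed libraries and 1.98 ± 0.41 CPM in unfed libraries (SD, n = 5 each), with log2 0.76 ± 0.24 (SE, edgeR adjusted p = 0.0185), a call lost under 5 of 19 other fits: with the length trend removed, in experiment 1 alone, and without the fed 13 dpf, the unfed 10 dpf or the unfed 13 dpf library of experiment 2. The second, which has no symbol, averaged 7.73 ± 2.84 CPM in fed libraries and 4.02 ± 0.77 CPM in unfed libraries (SD, n = 5 each), with log2 0.89 ± 0.23 (SE, edgeR adjusted p = 0.00832).

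Neurotensin comes from N cells and enteric neurons and in mammals promotes fat absorption. nts.S had 30.9, 16.2, 22.7, 23.2 and 17.3 CPM in fed libraries, against 13.5, 12.9, 12.6, 13.5 and 9.04 CPM in unfed libraries, with no overlap. nts.L had 77.9, 56.2, 62.9, 80.7 and 58.8 CPM in fed libraries, against 55.4, 56.5, 41.1, 42.2 and 37.6 CPM in unfed libraries; its groups touched at 13 dpf of experiment 1, where the unfed library was the higher of the pair. The rise was log2 0.83 ± 0.16 for nts.S (SE, edgeR adjusted p = 0.00154) and 0.55 ± 0.15 for nts.L (SE, edgeR adjusted p = 0.0119).

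In experiment 1 alone the differences were log2 0.76 for nts.S and 0.23 for nts.L, and in experiment 2 they were 0.88 and 0.76. With the length trend removed, nts.S rose by log2 0.48 (edgeR adjusted p = 0.0129) and nts.L, at 0.20, did not pass (edgeR adjusted p = 0.184). The nts.L call was also lost without the fed 13 dpf library of experiment 2 (edgeR adjusted p = 0.057).

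Somatostatin, made by D cells, inhibits the release of many other gut hormones and of gastric acid. Its genes ran opposite to those above. sst.1.L stood at 39.1, 24.5, 51.4, 60.1 and 45.2 CPM in fed libraries, against 37.2, 46.6, 55.4, 86.1 and 111.0 CPM in unfed libraries. sst.1.S stood at 62.9, 37.8, 58.5, 83.2 and 57.0 CPM in fed libraries, against 56.9, 75.3, 68.3, 132.2 and 136.0 CPM in unfed libraries. The groups overlapped, and the highest libraries of both copies were the unfed ones of experiment 2 at 13 and 16 dpf. Within matched pairs, fed was lower in 4 of 5 for each copy, with 10 dpf of experiment 1 as the exception.

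sst.1.L fell by 0.54 on the log2 scale (SE 0.21, edgeR adjusted p = 0.046), just inside the threshold. The log2 difference of sst.1.S was -0.58 ± 0.23 (SE), just outside it (edgeR adjusted p = 0.056). The sst.1.L call was lost under 7 of the 10 other settings and without any 1 of 7 libraries, where the edgeR adjusted p reached 0.148. It was kept without either 10 dpf library of experiment 1 or the unfed 10 dpf library of experiment 2. With the length trend removed both copies passed, at log2 -0.90 for sst.1.L (edgeR adjusted p = 0.00228) and -0.94 for sst.1.S (edgeR adjusted p = 0.00308). Within experiments, sst.1.L differed by log2 -0.43 in experiment 1 and -0.62 in experiment 2, and sst.1.S by -0.43 and -0.69. Of 24 enteric neuron and glia genes, 19 were tested, 8 were lower and 1 was higher in fed tadpoles. Over all genes tested 26.1% were lower and 25.4% higher. The lower calls in this list numbered 4 in experiment 1 alone, 2 in experiment 2 alone and 5 with DESeq2. The 24 genes summed to 126.4 to 188.8 CPM in fed libraries and 172.3 to 210.1 CPM in unfed libraries, and none was at 0 throughout. Their part in the somatostatin values was not tested.

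Ghrelin, in mammals a stomach hormone that stimulates feeding, had 16.6, 11.7, 21.5, 23.4 and 17.7 CPM in fed libraries, against 10.2, 16.4, 21.4, 28.2 and 30.3 CPM in unfed libraries. The groups overlapped widely and 2 of 5 matched pairs were higher in fed. The log2 difference was -0.17 with a 95% interval of -0.58 to 0.25 (edgeR adjusted p = 0.487). With the length trend removed it fell by 0.51 (edgeR adjusted p = 0.0334), and in experiment 1 alone it was 0.10. Of 7 stomach genes tested, 1 was higher and 1 lower in fed tadpoles, against 25.4% and 26.1% of all genes tested. gkn1.S, which encodes a secreted mucosal protein, was the higher one (log2 3.09 ± 0.60 SE, edgeR adjusted p = 0.00499). atp4a.S, an acid pump subunit, was the lower one (log2 -0.80 ± 0.30 SE, edgeR adjusted p = 0.042), a call lost under 11 of 19 other fits, by setting or by a library left out. A ghrelin O-acyltransferase-like gene, whose mammalian namesake acylates ghrelin, averaged 0.582 ± 0.290 CPM in fed libraries and 0.691 ± 0.399 CPM in unfed libraries (SD, n = 5 each) and had too few counts to be tested.

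Chromogranin A is the general marker of cells with dense granules. chga.L had 110.4, 101.4, 99.4, 77.9 and 77.0 CPM in fed libraries, against 71.3, 76.0, 41.3, 38.7 and 44.9 CPM in unfed libraries, with no overlap. It rose by log2 0.82 ± 0.15 (SE, edgeR adjusted p = 0.00101), with 0.51 in experiment 1 (edgeR adjusted p = 0.233) and 1.04 in experiment 2 (edgeR adjusted p = 0.00267). The scarcer chga.S averaged 14.4 ± 1.2 CPM in fed libraries and 12.1 ± 2.7 CPM in unfed libraries (SD, n = 5 each), and its log2 difference of 0.27 had a 95% interval of -0.08 to 0.61 (edgeR adjusted p = 0.174). Another gene, LOC108698650, described as chromogranin-A-like, averaged 0.7104 ± 0.197 CPM in fed libraries and 1.05 ± 0.23 CPM in unfed libraries (SD, n = 5 each). It was lower in fed in all 5 matched pairs, but had too few counts to be tested. The pair at 10 dpf of experiment 2 was close to a tie, with 0.957 CPM in fed and 0.958 CPM in unfed, from 8 and 7 counts.

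Counting libraries without a model, 7 of the 17 genes had every fed library above every unfed one, against 15.7% of all genes tested, and no hormone gene had every fed library below, against 14.7% of all genes tested. These 7 were pyy.S, gcg.L, gip.L, gip.S, cck.L, nts.S and chga.L. Levels were also set against chromogranin A. chga.L, itself higher in fed tadpoles by log2 0.82, gave 84.8% of the summed CPM of chga.L and chga.S. A rise of that sum alone lowers a ratio in fed libraries. Relative to the summed counts of chga.L and chga.S, pyy.S was 0.257 to 0.341 in fed libraries, against 0.151 to 0.233 in unfed libraries, with no overlap. gip.L relative to the same sum was 1.16 to 2.28 in fed libraries, against 0.978 to 1.83 in unfed libraries, and pyy.L was 0.409 to 0.554 in fed libraries, against 0.316 to 0.675 in unfed libraries, both overlapping. sst.1.S was 0.321 to 0.895 of that sum in fed libraries, against 0.720 to 2.58 in unfed libraries, and overlapped too. The chromogranin-A-like LOC108698650, with 3 to 12 counts a library, was 0.00498 to 0.00850 in fed libraries, against 0.0117 to 0.0246 in unfed libraries, without overlap. The ratios of the other detected hormone genes overlapped. The share of all genes without overlap on this ratio was not computed.

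By level per length, as CPM per kilobase of the row used and averaged over the 10 libraries, sst.1.S came first with 120.2 ± 50.9 and gip.S second with 119.7 ± 46.5, closer than their SD. sst.1.L at 82.2 ± 37.5 and nts.L at 81.4 ± 20.7 followed, again closer than their SD, and then pyy.L at 55.7 ± 22.1. gip.L at 43.8 ± 16.3 was placed by a transcript variant of 3024 bases, so its rank depends on that row. ghrl (35.4 ± 11.7), pyy.S (32.9 ± 15.9), gcg.L (27.6 ± 11.7), chga.L (24.2 ± 8.4) and nts.S (23.8 ± 9.1) differed from their neighbours by less than their SD. cck.S at 7.45 ± 5.11, cck.L at 5.20 ± 2.43 and chga.S at 5.03 ± 0.88 formed a lower step, and gcg2 (1.69 ± 1.11) and LOC108698650 (0.339 ± 0.103) were lowest among those detected. In fed libraries gip.S led with 159.2 ± 22.9, and in unfed libraries sst.1.S led with 146.7 ± 58.6 CPM per kilobase (SD, n = 5 each).

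The feeding difference was then read at single ages, with 2 libraries a group and 1 estimate of spread shared by all groups. At 10 dpf 6 of the 15 genes tested passed as higher in fed tadpoles and none as lower; 12.0% of all genes tested were higher and 10.5% lower, 22.5% in either direction. They were gcg.L (log2 1.45 ± 0.23 SE, edgeR adjusted p = 0.00226), pyy.S (log2 1.35 ± 0.22 SE, edgeR adjusted p = 0.00235), nts.S, chga.L, gip.S and cck.S. An unadjusted p was under 0.05 for 8 of the 15 genes and for 8046 of all 21719. The somatostatin copies differed little at 10 dpf in the full fit, with log2 differences of -0.01 for sst.1.L (95% interval -0.55 to 0.53) and -0.01 for sst.1.S (95% interval -0.65 to 0.62). Over 17 alternatives sst.1.L ran from -0.42 to 0.23 and sst.1.S from -0.48 to 0.36.

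At 13 dpf 6 passed as higher and 1 as lower, with 17.6% of all genes tested higher and 15.8% lower, 33.4% in either direction. The higher genes were gcg.L (log2 1.29 ± 0.23 SE, edgeR adjusted p = 0.00206), pyy.S (log2 1.03 ± 0.22 SE, edgeR adjusted p = 0.00495), gip.S, cck.L, cck.S and chga.L. sst.1.L was lower by log2 -0.70 ± 0.25 (SE, edgeR adjusted p = 0.0488). The counts at single ages were unstable. Stage-field ages were not tried at single ages, so the calls there rest on the titles. Without the experiment in the model, 3 genes passed at 10 dpf and 2 at 13 dpf. Calls over all genes tested fell as well. They went from 2610 higher and 2287 lower to 1142 and 835 at 10 dpf. At 13 dpf they went from 3827 and 3426 to 2156 and 1688. They also fell at an age when a library of that age was left out. Leaving out 1 of the 4 libraries of 10 dpf gave 2 genes at that age (the unfed library of experiment 2) or 3 (each of the others). At 13 dpf 1 gene passed without the unfed 13 dpf library of experiment 2, and 4 without the fed 13 dpf library of experiment 2 or either unfed 10 dpf library. gcg.L passed at both ages under each alternative tried, and pyy.S under each except 1 at 13 dpf, without the unfed 13 dpf library of experiment 2 (edgeR adjusted p = 0.0805).

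At 16 dpf there is 1 library a feeding state, and the difference at that age alone was not tested. Of the 17 genes, 6 were at least 2-fold higher in the fed library there on the log2(CPM + 1) scale and 2 were at least 2-fold lower, against 9.11% and 10.8% of all genes tested. On that scale pyy.S had the largest ratio, log2 1.63, followed by gip.S at 1.39 and gip.L at 1.35, then cck.L, cck.S and pyy.L. The order depends on the added 1 CPM: the plain ratio of fed to unfed CPM was 3.56 for cck.S, from 21 counts in the fed library and 9 in the unfed one, 3.34 for pyy.S, 2.84 for cck.L and 2.68 for gip.S. sst.1.L at -1.28 and sst.1.S at -1.24 were the lower ones. gcg.L, with 43.2 CPM in the fed library and 38.7 CPM in the unfed library, differed by log2 0.15, against 0.76 for chga.L and -0.74 for ghrl.

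**Figure D3:**
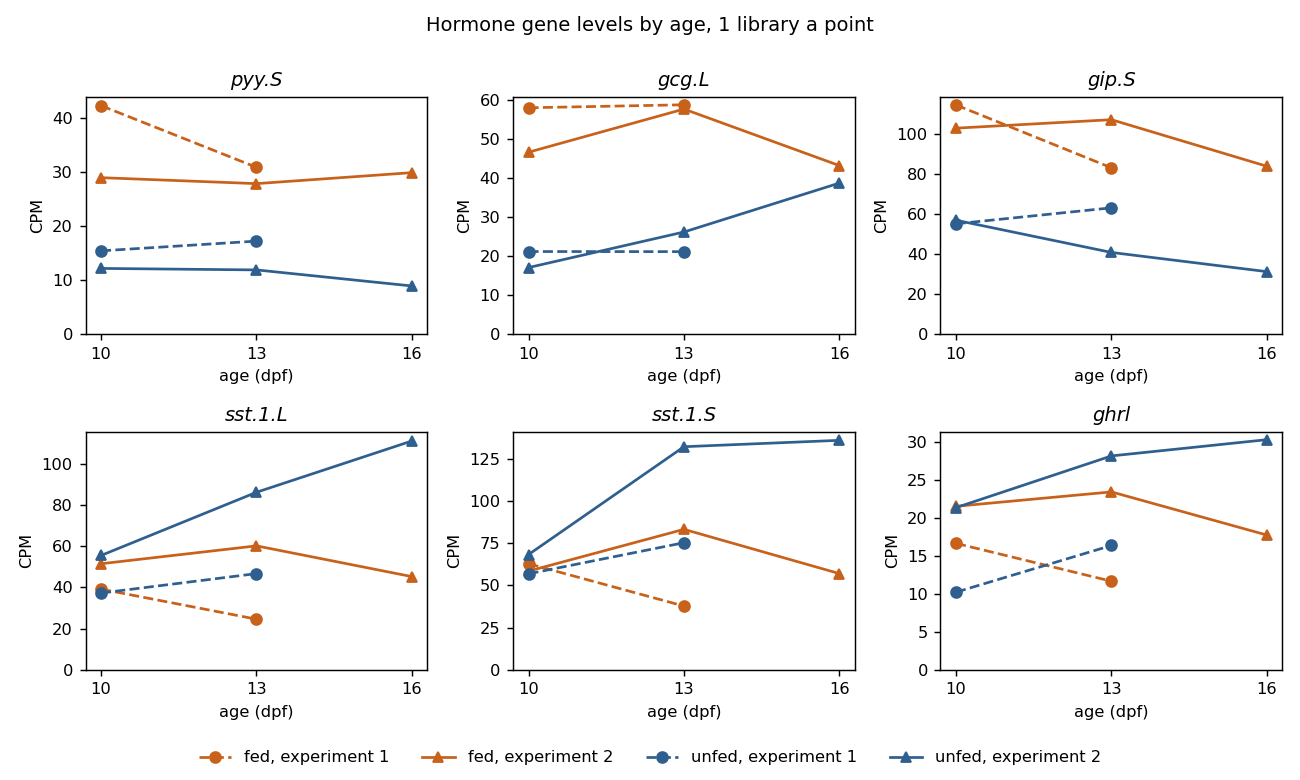
CPM (vertical axis, from 0) against age in dpf for 6 hormone genes, 1 library a point, with fed in orange, unfed in blue, dashed lines for experiment 1 and solid lines for experiment 2. Unfed sst.1.L reaches 111.0 CPM at 16 dpf and unfed gcg.L reaches 38.7 CPM, while fed pyy.S stays at 27.8 to 42.2 CPM.

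Age itself, as given by the titles, was compared from 10 to 13 dpf within each feeding state, and no hormone gene passed. In fed tadpoles no gene of the 21719 was called by edgeR (0%; 390 at an unadjusted p under 0.05, none of them a hormone gene; 2 genes with DESeq2). In unfed tadpoles 1 gene was called as higher (0.00460%) and 1 as lower (0.00460%), 0.00921% in either direction (1344 at an unadjusted p under 0.05; with DESeq2 17 higher and 23 lower). Without the unfed 10 dpf library of experiment 2, edgeR called 4 genes higher and 74 lower. None of these calls was a hormone gene, and 3 hormone genes had an unadjusted p under 0.05 in the full fit: sst.1.S (log2 0.68 ± 0.29 SE), ghrl (log2 0.53 ± 0.23 SE) and gcg2 (log2 0.98 ± 0.43 SE), with edgeR adjusted p of 0.769, 0.795 and 0.78. The change of the feeding difference from 10 to 13 dpf passed for no gene (0%; 1124 at an unadjusted p under 0.05, none of them a hormone gene; with DESeq2 12 genes higher and 9 lower, none of them a hormone gene). Its estimates were lowest for sst.1.S, at log2 -0.79 with a 95% interval of -1.69 to 0.11, for ghrl, at -0.72 (-1.45 to 0.01), and for sst.1.L, at -0.69 (-1.45 to 0.08). The feeding effect differed between experiments for no gene (0%; 1465 at an unadjusted p under 0.05, cck.L among them; with DESeq2 30 higher and 62 lower, none of them a hormone gene).

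L and S copies sharing a symbol were measured for 6 genes. gcg.L (chromosome 9_10L) and gcg2 (chromosome 9_10S) share none and were not compared as copies. The log2 ratio of the L to the S copy was tested with limma over 5682 gene pairs, of which 28.7% were called. It passed for 2 of the 6, near that share. For pyy the ratio was 0.59 ± 0.11 in fed libraries and 1.15 ± 0.44 in unfed libraries (SD, n = 5 each), a difference of -0.56 ± 0.17 (SE, limma adjusted p = 0.0262), so the S copy rose more. For chga it was 2.60 ± 0.28 in fed libraries and 2.05 ± 0.67 in unfed libraries (SD, n = 5 each), a difference of 0.55 ± 0.16 (SE, limma adjusted p = 0.0244), so the L copy rose more. Each gene had a matched pair that went the other way. For pyy it was 13 dpf of experiment 2, with 0.58 in fed and 0.55 in unfed. For chga it was 10 dpf of experiment 1, with 2.94 in fed and 3.07 in unfed. The chga ratios overlap between groups because both unfed libraries of experiment 1 were high, at 3.07 and 2.38, and the call was lost without the experiment in the model (limma adjusted p = 0.126). Both calls were lost without the fed 16 dpf, the unfed 16 dpf or the unfed 10 dpf library of experiment 2, 1 call without any other library except the unfed 10 dpf library of experiment 1, and the limma adjusted p reached 0.0872 for pyy and 0.0883 for chga.

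The ratios of gip, nts, cck and sst.1 did not pass. The differences were -0.11 for gip (95% interval -0.32 to 0.10), -0.24 for nts (-0.51 to 0.03), -0.22 for cck (-0.75 to 0.31) and 0.05 for sst.1 (-0.17 to 0.26). The S copy was the stronger of the pair in sst.1, where the L copy gave 42.0% of the summed CPM, against 84.8% in chga, 77.0% in nts, 65.0% in pyy, 64.2% in gip and 56.8% in cck. Whether reads that align to both copies were counted is not given in the sources used here.

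**Figure D4:**
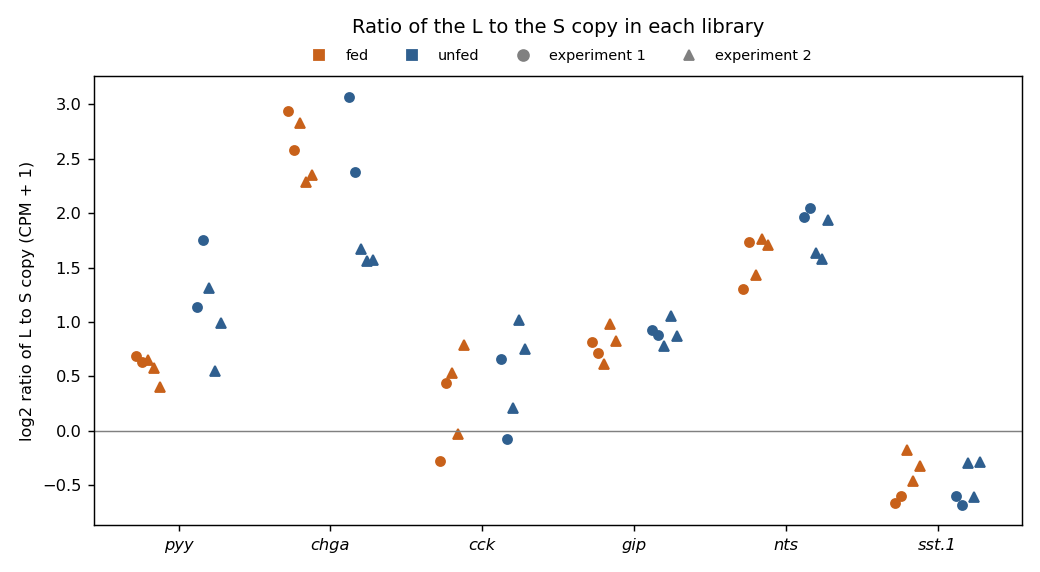
Log2 ratio of the L to the S copy, with 1 CPM added to each (vertical axis), for 6 genes, fed in orange on the left and unfed in blue on the right of each gene, circles for experiment 1 and triangles for experiment 2. The 5 fed pyy ratios lie between 0.41 and 0.69 and the 5 unfed ones between 0.55 and 1.76; the sst.1 ratios are below 0 in all 10 libraries.

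Among pairs of hormone genes, the 2 copies of gip had the most alike profiles over the 10 libraries. Their root mean square difference was 0.122 between centred log2(CPM + 1) profiles, followed by the copies of sst.1 at 0.17. Among the 21704 other genes tested, the profiles nearest to gip.L belonged to LOC108719345, a cytochrome c oxidase subunit 6C-like gene (0.120), and sdhd.L, a succinate dehydrogenase subunit (0.126). Nearest to gip.S were LOC108713281, an uncharacterized gene (0.140), and ndufs7.L, whose mammalian namesake is a subunit of respiratory complex I (0.141). Nearest to sst.1.S were LOC108711741, a histidine N-acetyltransferase-like gene (0.132) at a mean of 0.932 CPM in fed libraries and 2.23 CPM in unfed libraries, where the added 1 CPM shrinks a fitted log2 difference of -1.18, and rsl24d1.L, a ribosome biogenesis factor (0.157), and nearest to chga.L were fam83e.L (0.137) and pigs.L, a subunit of the enzyme that attaches GPI anchors (0.149). These are descriptions over 10 libraries that share the feeding contrast.

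Genes that act with the hormones did not share a direction. Their counts stand against 25.4% of all genes tested higher and 26.1% lower. Of 29 other hormone precursor genes, 19 were tested, 7 were higher in fed tadpoles and 3 lower. The 7 include gast.L, given above beside cck, and both copies of penk. With the length trend removed, 5 were higher and 3 lower, and in experiment 1 alone 3 were higher and 0 lower. penk.S, which encodes enkephalin, averaged 43.9 ± 8.1 CPM in fed libraries and 24.6 ± 6.3 CPM in unfed libraries (SD, n = 5 each; log2 0.84 ± 0.13 SE, edgeR adjusted p = 0.000452). nmb.S, neuromedin B, rose by log2 1.18 ± 0.22 (SE, edgeR adjusted p = 0.0012). npy.L, neuropeptide Y, averaged 1.75 ± 0.37 CPM in fed libraries and 0.360 ± 0.275 CPM in unfed libraries (SD, n = 5 each) and rose by log2 2.30 ± 0.40 (SE, edgeR adjusted p = 0.000766). The vasoactive intestinal peptide genes, expressed by enteric neurons, fell by 0.83 for vip.S (edgeR adjusted p = 0.0012) and 0.70 for vip.L (edgeR adjusted p = 0.00434), and apln.L, apelin, fell by 0.56 (edgeR adjusted p = 0.00694).

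Of 35 genes of prohormone processing and granules, 32 were tested, 2 were higher and 6 lower in fed tadpoles. ddc.L, the decarboxylase that makes serotonin and dopamine, rose by log2 0.56 ± 0.18 (SE, edgeR adjusted p = 0.0208), and rab3c.S, a vesicle GTPase, by 0.81 ± 0.28 (SE, edgeR adjusted p = 0.0315). chgb.S, chromogranin B, averaged 5.04 ± 0.80 CPM in fed libraries and 9.53 ± 2.73 CPM in unfed libraries (SD, n = 5 each) and fell by 0.88 (edgeR adjusted p = 0.00694), opposite to chga.L. ptprn.S, a granule membrane protein, fell by 0.70 (edgeR adjusted p = 0.00548) and snap25.L, a protein of vesicle fusion, by 0.53 (edgeR adjusted p = 0.00769). snap25.L also stands in the enteric neuron and glia list, so its lower call is counted in both lists. With the length trend removed the list had 3 higher and 3 lower genes, and ptprn.S no longer passed; the rab3c.S call was lost under 10 of 19 other fits and the ddc.L call under 6.

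Of 42 genes of enteroendocrine transcription factors, 25 were tested, 6 were lower in fed tadpoles and none was higher; the lower share was near that of all genes tested, 26.1%. sox4.L averaged 5.80 ± 1.17 CPM in fed libraries and 11.5 ± 0.7 CPM in unfed libraries (SD, n = 5 each) and fell by 0.99 (edgeR adjusted p = 0.000606), sox4.S fell by 0.91 (edgeR adjusted p = 0.000806) and etv1.S by 0.80 (edgeR adjusted p = 0.000394). SOX4 acts in progenitors and ETV1 in several gut cell types in mammals. neurog3, which in mammals starts the enteroendocrine lineage, was too scarce to test: neurog3.L averaged 0.458 ± 0.117 CPM in fed libraries and 0.428 ± 0.117 CPM in unfed libraries (SD, n = 5 each). Of the 17 enteroendocrine markers outside the rule, 3 were lower (isl1.S, chgb.S and scg2.L) and none was higher, with a median log2 difference of -0.14. These markers all stand in the granule or transcription factor lists too, so the 3 calls are already counted there. The scg2.L call was lost with the length trend removed and in experiment 1 alone.

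Receptors of the hormones and nutrient sensors held genes called in each direction. Of 28 receptor genes, 11 were tested, 3 were higher and 2 lower in fed tadpoles, near the 51.5% of all genes tested that passed in either direction. The somatostatin receptor sstr3.L averaged 16.2 ± 4.1 CPM in fed libraries and 6.86 ± 1.75 CPM in unfed libraries (SD, n = 5 each; log2 1.22 ± 0.20 SE, edgeR adjusted p = 0.000516). The cholecystokinin receptor cckbr.L rose by log2 1.33 ± 0.24 (SE, edgeR adjusted p = 0.00106), and sstr2.S by 0.71 ± 0.27 (SE, edgeR adjusted p = 0.043), a call lost under 13 of 19 other fits. glp2r.L, receptor of a proglucagon product, fell by 0.70 (edgeR adjusted p = 0.00126) and sstr4.L by 0.56 (edgeR adjusted p = 0.0252), a call lost under 8 of 19 other fits.

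Of 16 luminal nutrient sensor genes, 7 were tested, 1 was higher and 3 were lower in fed tadpoles, again near that share. trpa1.L, a channel opened by irritants, fell by 0.62 (edgeR adjusted p = 0.00293), cnr1.L, a cannabinoid receptor, by 1.11 (edgeR adjusted p = 0.0136) and casr.S, the calcium-sensing receptor, by 0.89 (edgeR adjusted p = 0.015), a call lost under 4 of 19 other fits. lpar5.L, a lipid receptor, rose by log2 0.67 ± 0.24 (SE, edgeR adjusted p = 0.0366), a call lost under 10 of 19 other fits. Without the experiment in the model, none of the 7 was higher and 2 were lower.

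**Figure D5:**
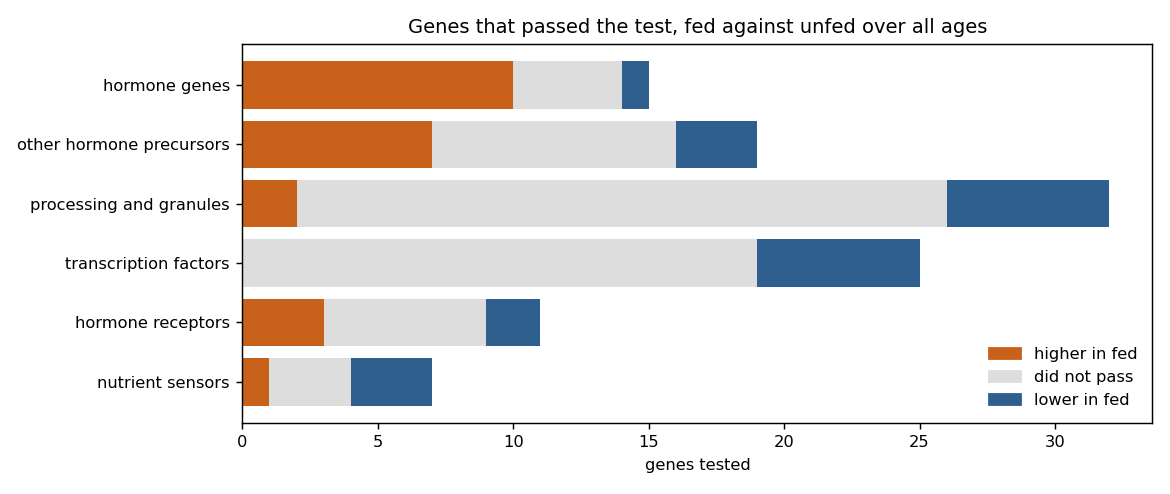
Number of genes tested (horizontal axis) in the hormone genes and in 5 lists of genes that act with them, split by the edgeR test over all ages into higher in fed, did not pass, and lower in fed. The hormone genes show 10 higher and 1 lower of 15, and the transcription factors 0 higher and 6 lower of 25; of all genes tested 25.4% were higher and 26.1% lower.

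Some markers of other cells in the tube passed, against 25.4% of all genes tested higher and 26.1% lower. Of 15 intestinal epithelium genes, 13 were tested, 4 were higher and 1 was lower in fed tadpoles. Their summed level was 10563 to 13158 CPM in fed libraries and 3486 to 12951 CPM in unfed libraries, lowest in the unfed libraries of experiment 2 at 13 and 16 dpf. At 10 dpf of experiment 1 the unfed library, at 12951 CPM, was above the fed one, at 10563 CPM. fabp2.S, the intestinal fatty acid binding protein, averaged 1819 ± 371 CPM in fed libraries and 618.5 ± 410.2 CPM in unfed libraries (SD, n = 5 each; log2 1.83 ± 0.40 SE, edgeR adjusted p = 0.00381). The lower gene was alpi.1.L, at log2 -1.81 to -0.77 over 19 other fits, and 18 kept the call. Of the other higher genes, cdx2.S kept its call under 18 of 19 other fits, vil1.L under 11 and lct.2.L under 7. In experiment 1 alone 0 genes of this list were higher and 1 was lower, and in experiment 2 alone 6 were higher and 0 lower. Of 14 acinar genes tested none passed, of 6 islet genes 1 was higher (mafb.S, log2 0.52 ± 0.14 SE, edgeR adjusted p = 0.0105), and of 10 liver genes 2 were higher and 1 lower. The median log2 difference of the 10 liver genes was 0.15, so the summed level of the liver list does not stand for each of its genes. In the epithelium, acinar, islet and liver markers alike, a smaller share passed than the 51.5% of all genes tested called in either direction. In experiment 1 alone, npy.L, penk.S, sox4.L, sstr3.L, gkn1.S and alpi.1.L were the genes named from these lists that passed. The part of these tissues in the hormone differences was not tested.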

How the data were processed

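RNA of fed and unfed tadpole intestinal tubes was sequenced in 10 libraries of 2 experiments. HISAT2 and featureCounts are named in the submitters' processing notes, with no version; the genome build is not given in the sources used here. Raw, unscaled read counts were deposited by the authors for each of 63876 transcript rows; per the file headers each row also has a length in bases. The 10 deposited columns scaled by length and depth were not used. The members and the gene lists were chosen with earlier results of these data known.

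The 61159 rows with a RefSeq accession were assigned to genes with a RefSeq gene table of Xenopus_laevis_v10.1, used for names only (10476 matched with the accession's version, 32920 without it, and 8768 joined to neighbouring variants of the same description), and the row with the highest total count stood for a gene. All 17 hormone genes were in the table. Of the counts, 0.0738% had a blank name and 0.136% a name without accession, and these were left out, as were 30 receptor genes from the rule.

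In R 4.3.3, edgeR 4.0.16 was fitted with experiment, age and feeding as terms, or with experiment and the 6 feeding by age groups. Its settings were TMM, filterByExpr with a minimum count of 10, the robust quasi-likelihood F test and Benjamini-Hochberg over all genes tested. The length trend was taken from log2 CPM with a prior count of 2. limma 3.58.1 tested log2 ratios of copies with 1 CPM added, for pairs with a mean of at least 1 CPM in either copy. SE is the log2 fold change divided by the root of F. The experiment number is the replicate number and served as a block, since the labels divide the libraries by experiment; deviations of experiment 2 from experiment 1 correlated between groups at 0.332 to 0.525 over 6 pairs of groups. No 2 libraries were near-identical. The fits were tested on simulated counts. Alternatives were size factors, filter, DESeq2 1.42.0, no block, length trend, stage-field ages, all transcript rows, single experiments, pseudocount and leaving out each library. Stage-field ages and single experiments were tried only in the comparison over all ages. A sum over a gene's rows was added after seeing the data. All hormone genes are named; of other lists, up to 3 called genes a direction with the smallest p, and genes outside this (neurog3.L, scg2.L, isl1.S, the insulin genes, and the single genes of the marker lists) were chosen after their values were seen.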

Additional observations from a re-analysis of the deposited data

Results flagged for a closer look

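The level of each detected hormone gene was checked in the 5 fed and in the 5 unfed libraries, 32 groups in all, for a library far from the others. Dixon's test at 95% marked 3, and chance alone marks about 1 in 20 where the 5 libraries differ by chance only. Each group here mixes ages and experiments. A mark therefore cannot tell a far library from a difference by age or experiment. pyy.S was high in the fed 10 dpf library of experiment 1, at 42.24 CPM, where the other fed libraries had 27.8 to 30.8 CPM. cck.L was high in the unfed 10 dpf library of experiment 1, at 5.303 CPM, where the other unfed libraries had 2.05 to 2.996 CPM. nts.S was low in the unfed 16 dpf library of experiment 2, at 9.04 CPM, where the other unfed libraries had 12.6 to 13.5 CPM.

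Leaving out any 1 of the 10 libraries kept the all-ages calls of pyy.S (edgeR adjusted p up to 0.000472), cck.L (up to 0.00547) and nts.S (up to 0.00856).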

How the results depend on the processing

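Over all ages 11 hormone genes passed; the number was 9 to 12 under the other settings except in experiment 1 alone, which has 4 libraries, where it was 2, and 8 to 12 with a library left out. At 10 dpf 6 passed, 3 without the experiment as a replicate block, 3 with the length trend removed and 2 to 9 with a library left out. At 13 dpf 7 passed, 4 with DESeq2, 2 without the replicate block, 4 with the sum over a gene's rows and 1 to 8 with a library left out. For the ratio of copies 2 passed, 1 with a pseudocount of 5 CPM, 1 without the replicate block and 0 to 2 with a library left out. Age within a feeding state, the change of the feeding difference with age and its difference between experiments gave 0 under each setting tried. They also gave 0 with each library left out. Stage-field ages were not among the settings tried for them. Calls over all 21719 genes tested moved too. At 10 dpf they went from 2610 higher and 2287 lower to 1142 and 835 without the replicate block. With the length trend removed they were 2288 and 1914. At 13 dpf they went from 3827 and 3426 to 2156 and 1688 without the block. DESeq2, with 21297 genes tested, gave 2755 and 2228 at 13 dpf. The cause of these moves was not tested, apart from fewer libraries in single experiments and left-out fits.

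Signs changed only where the main difference was not called. For gcg2 over all ages (log2 -0.01) the value was 0.0212 without the filter, 0.0451 with DESeq2, 0.0346 without the replicate block, 0.0218 with stage-field ages, 0.0533 on all transcript rows, 0.0297 with summed rows, 0.53 in experiment 1 alone, and -0.11 to 0.34 with a library left out. For ghrl it was 0.10 in experiment 1 alone, and -0.0718 at 10 dpf with the length trend removed. At 10 dpf sst.1.L was 0.0196 without the filter, 0.0408 on all rows, 0.0047 with summed rows and -0.29 to 0.23 with a library left out, and sst.1.S was 0.0159, 0.0383, 0.0017 and -0.48 to 0.36. At 13 dpf gcg2 was -0.23 with the length trend removed, nts.L was -0.0382 to 0.95 and pyy.L was -0.27 to 1.18 with a library left out; the sst.1 ratio of copies was -0.0011 to 0.097. Of 888 values of single genes under alternatives, 723 kept their direction and side of the threshold, 111 lost the threshold, 28 gained it and 26 changed sign. Counts were fewest for gcg.2.L (0), the chromogranin-A-like gene (76 in all), gcg2 (187), cck.S (303) and cck.L (399), and single ages have 2 libraries a group.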
